A study of Mus musculus with 6 samples.

Results

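The myelin structural genes described here are 9 of the 55421 gene identifiers counted in single-cell RNA sequencing of mouse sciatic nerve: Mbp, Pmp22, Prx, Mag, Mal, Ncmap, Cldn19, Drp2 and Pllp. They were chosen by name, for what their proteins are known to do, and all 9 were found in the count matrices.

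Myelin is the compacted wrap of Schwann cell membrane that insulates peripheral axons, and it is held together by a small set of proteins that the myelinating Schwann cell makes in quantity. Schwann cells that bundle thin axons without wrapping them, and the repair cells that myelinating cells turn into after nerve injury, keep these genes low. The transcription factors SOX10 and EGR2 are the known drivers of the myelin programme in peripheral nerve.

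The mice were adult wild-type C57BL/6J animals of both sexes, and the groups differed by surgery and by time after it. In partial sciatic nerve ligation (PSNL) a ligature is tied around a portion of the sciatic nerve, while in sham animals the nerve was exposed and left untied. Each library held the sorted cells of 4 pooled nerves, cut around the lesion on the operated side. Batch 1 gave 1 sham and 1 PSNL library taken at month 2, and batch 2 gave 1 sham and 1 PSNL library taken at month 2 and 1 PSNL library taken at day 5. A sham library of day 5 was not analysed here, so day 5 has 1 library and no control of its own. The sort kept nucleated live events that carried no CD45, no Ter119 and no myelin label. Cells with myelin attached were thus removed on purpose, and the shares and levels of Schwann cells below describe what passed that gate.

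The files hold raw counts of unique molecular identifiers (UMIs, each 1 captured RNA molecule), between 4099617 and 19557393 per library. Barcodes with at least 1000 UMIs and under 10% of them mitochondrial were taken as cells, which left 11524. Library pairs shared 0 to 3 cell barcodes. Each cell was placed in the class whose marker genes had the largest UMI sum: Schwann cells by Cdh19, Sox10 and Erbb3, and fibroblasts, mural cells (the pericytes and smooth muscle cells of vessels), endothelial cells and perineurial cells by lists of their own. No myelin gene was used for this. The Schwann class held 2233 cells, with 7 in the sham library of batch 1, 533 in the sham library of batch 2, and 210, 1042 and 441 in the PSNL libraries of batch 1, batch 2 and day 5. The batch 1 sham library therefore stood apart, with 20359 Schwann UMIs against 610619 to 5956727 in the others. The day 5 library stood apart by depth, with a median of 13030 UMIs per Schwann cell against 2470 to 2711.5. The class label was checked on genes not used to set it. S100b, Foxd3 and Fabp7, known Schwann markers, summed to 344 to 671 UMIs per 1000000 UMIs of a class and library (CPM) in the Schwann class and to 26.4 to 60.1 in fibroblasts. The fibroblast genes Pdgfra, Col1a1 and Dcn summed to 1277 to 4152 in the Schwann class against 22560 to 38296 in fibroblasts. All levels are in CPM, and libraries are always given in the order sham batch 1, sham batch 2, PSNL batch 1, PSNL batch 2 and PSNL day 5. Since a 3′ library gives 1 tag per molecule but genes differ in capture, levels are compared between cells and not between genes.

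The 9 genes lie on 7 chromosomes of GRCm38, in the GENCODE vM21 annotation, and all are protein-coding. Pmp22, for a membrane protein of compact myelin, lies at chr11:63128982-63159547 on the plus strand. Prx, for periaxin, which ties the outer Schwann membrane to the basal lamina, lies at chr7:27499324-27520214 on the plus strand, and Drp2, for a partner of periaxin in that complex, at chrX:134404551-134456573 on the plus strand. Mag, for a glycoprotein that faces the axon, lies at chr7:30899176-30914873 on the minus strand. Mal, for a lipid raft protein of myelin membrane traffic, lies at chr2:127633226-127656695 on the minus strand, and Pllp, for plasmolipin, a raft protein of the same family, at chr8:94674894-94696278 on the minus strand. Ncmap, for a membrane protein of non-compact myelin, lies at chr4:135369576-135398227 on the minus strand. Cldn19, for the claudin of the tight junctions inside the sheath, lies at chr4:119255414-119262438 on the plus strand. Mbp codes for the basic protein that zips the inner membrane faces together. Overlapping genes on the opposite strand were annotated for 5 of the 9. The one with counts of any size was Gm15541, antisense within Prx, with 1387 UMIs over all cells and 0, 67.3, 32.8, 119 and 19.3 CPM in Schwann cells. As the strand used in counting is not given in the sources used here, reads of Prx and Gm15541 may be shared.

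The sequence before these genes was searched for the core letters of sites bound by the factors named above, ACAAAG for SOX factors and GTGGGCG for EGR factors, each on both strands (CTTTGT and CGCCCAC). RefSeq windows of 300 bases around annotated starts, in GRCm38.p6, were at hand for 7 of the 9 genes, 14 windows in all. The SOX letters occurred in 2 windows, both of Mag, against 18.7% of the 32851 windows of all genes. The EGR letters occurred in 2 windows, both of Cldn19, against 7.97% of all windows. In each gene the 2 windows with the letters overlap and hold the same match, at -126 and -67 from the starts of Mag and at -86 and -114 from those of Cldn19. A match of so few letters is a description of the window and no evidence of binding, and its lack says only that the letters are not there. The windows shown are Cldn19 (chr4:119255191-119255490, plus strand) and Mag (chr7:30914814-30915113, minus strand), since they hold the matches, and the first of Ncmap (chr4:135398178-135398477, minus strand), the gene with the largest differences within Schwann cells below and with no match in its windows. Capitals mark the match.
Cldn19: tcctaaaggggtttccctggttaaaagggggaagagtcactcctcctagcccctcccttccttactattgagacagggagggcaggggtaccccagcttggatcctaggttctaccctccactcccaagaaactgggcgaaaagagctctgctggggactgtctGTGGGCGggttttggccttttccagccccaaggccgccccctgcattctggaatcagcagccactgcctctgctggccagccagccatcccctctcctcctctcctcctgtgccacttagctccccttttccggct
Mag: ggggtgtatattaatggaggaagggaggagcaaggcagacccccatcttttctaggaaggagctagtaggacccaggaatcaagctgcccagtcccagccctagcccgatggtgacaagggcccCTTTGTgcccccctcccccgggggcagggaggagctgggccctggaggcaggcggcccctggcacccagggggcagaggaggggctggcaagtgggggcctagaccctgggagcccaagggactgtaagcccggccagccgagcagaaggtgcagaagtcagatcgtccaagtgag
Ncmap: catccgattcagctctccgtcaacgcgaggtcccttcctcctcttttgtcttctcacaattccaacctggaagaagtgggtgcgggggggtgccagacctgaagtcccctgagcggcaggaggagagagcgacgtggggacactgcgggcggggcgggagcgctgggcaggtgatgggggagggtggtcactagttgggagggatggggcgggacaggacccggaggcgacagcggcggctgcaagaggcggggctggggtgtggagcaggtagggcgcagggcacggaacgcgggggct

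In Schwann cells all 9 genes were found, and over the libraries fitted together each was higher than in every other named class of cell. This did not hold for each gene in the sham library of batch 1. There the 7 Schwann cells had 0 UMIs of Mag and Ncmap, while fibroblasts held 3 of Mag. Mbp stood at 540, 1837, 978, 2296 and 121 CPM in the 5 libraries, against 7.1, 21.1, 6.1, 44.1 and 1.5 in fibroblasts. The Schwann value was above the fibroblast value in each library, and no Schwann library overlapped the fibroblast range. Pmp22 stood at 688, 3398, 1672, 3646 and 667 in Schwann cells and at 252, 311, 237, 302 and 172 in fibroblasts, and the other 8 genes reached at most 44.1 in fibroblasts. Pmp22 is known to be made outside nerve as well. In mural cells it stood at 62.8, 183, 97.1, 275 and 216, and in the 4 libraries with enough perineurial cells at 149, 189, 175 and 205. The plot of levels by class shows this for all 9 genes.

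**Figure D1:**
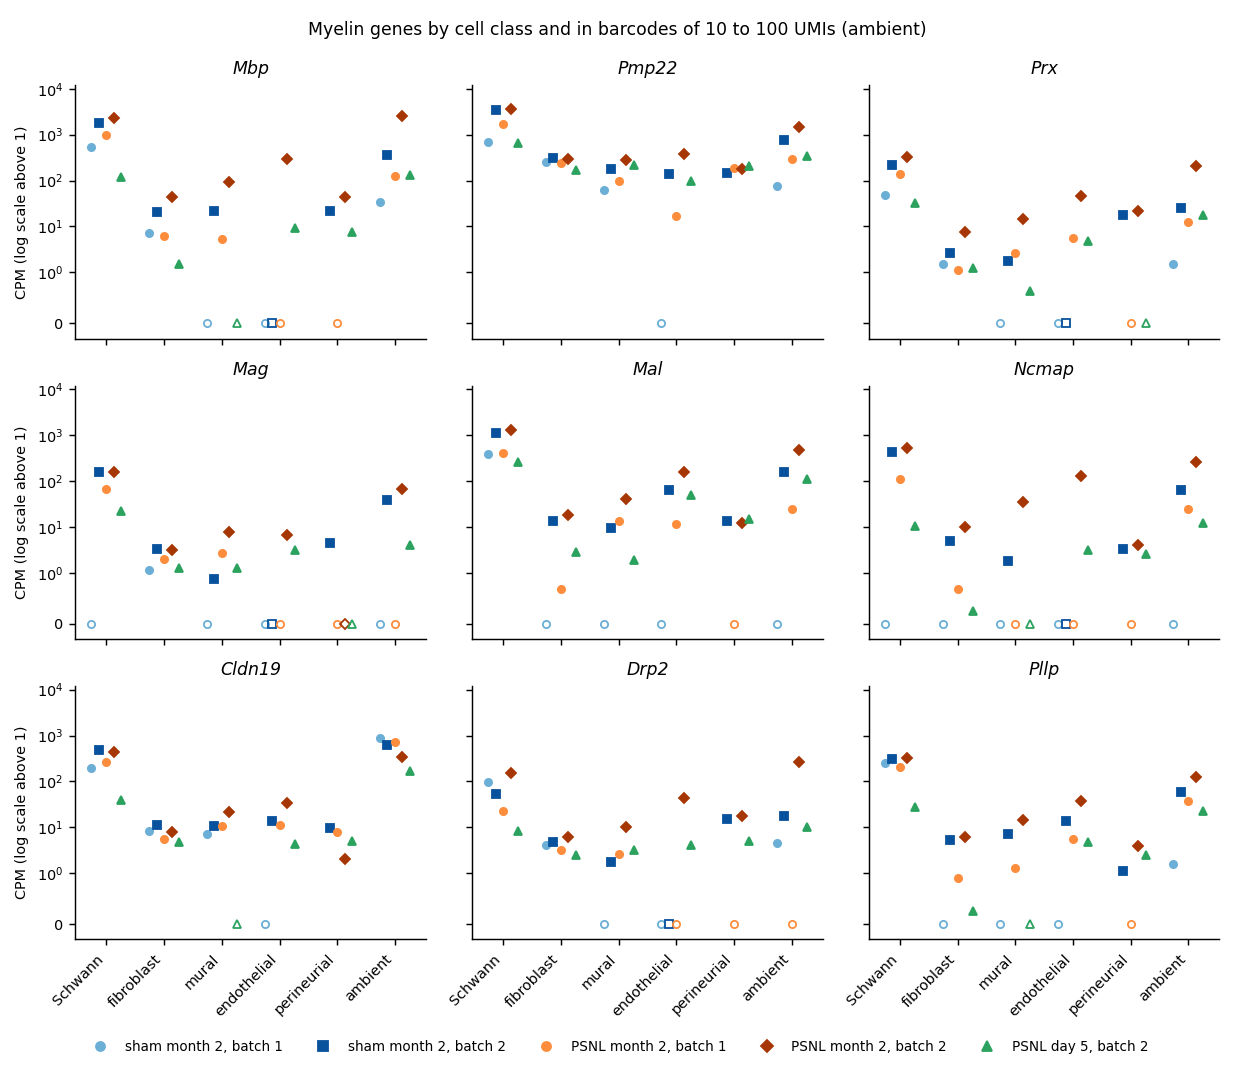
CPM (log scale above 1, linear below) of each of the 9 myelin genes in each class of cell and in barcodes of 10 to 100 UMIs (ambient), with 1 point per library and open symbols for 0 UMIs. Mbp stood at 121 to 2296 in Schwann cells and at 1.5 to 44.1 in fibroblasts, and Pmp22 at 172 to 311 in fibroblasts.

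Sums of UMIs by class were tested between classes with edgeR (quasi-likelihood), keeping the library as a block because each library supplies both classes, and p-values were adjusted by Benjamini-Hochberg over all genes tested. Against fibroblasts all 9 genes were higher, where 15.0% of the 15816 genes tested were higher. Their median log2 fold change was 5.42 (all genes tested: -0.08). Mal had the largest difference, 6.51 ± 0.44 (SE) on the log2 scale, Mbp came to 5.92 ± 0.34 (edgeR adjusted p = 7.6e-10), and Pmp22 had the smallest, 2.28 ± 0.35 (edgeR adjusted p = 6.56e-05). Against mural cells all 9 were again higher (background 16.7%), from 3.07 for Pmp22 to 5.78 for Mbp. Against perineurial cells, over 4 libraries, all 9 were higher (background 11.1%), from 2.19 for Drp2 to 6.64 for Pllp. Drp2 and Prx showed up in perineurial cells at 15.3, 0, 17.9 and 5.1 and at 17.5, 0, 21.9 and 0 CPM. No member's call was lost against fibroblasts or mural cells when any single library was left out.

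Against endothelial cells all 9 genes were higher in Schwann cells (background 13.4%), by 1.92 for Drp2 to 4.63 for Mbp, with edgeR adjusted p of at most 0.00788. Mbp in endothelial cells was at 0, 0, 0, 297 and 9.4 CPM. In the PSNL library of batch 2, 6 of 106 endothelial cells also carried a UMI of Cdh19, Sox10 or Erbb3, and these 6 held 467 of the 512 UMIs of the 9 genes (91.2%) and 132 of the 134 of Mbp. Mal in endothelial cells was at 0, 64.7, 11.3, 155 and 49.9 CPM. In the PSNL library of batch 2 the same 6 cells held 57 of its 70 UMIs (81.4%). In the sham library of batch 2 its 14 UMIs lay in 4 of 61 cells, and none of the 61 carried a Schwann marker. At day 5, with the most endothelial cells, 267 UMIs lay in 51 of 429 cells (11.9%). There the 2 endothelial cells with a Schwann marker held 15.0% of the Mal UMIs, and Mal stood at 5.34 UMIs per UMI of Mbp, against 2.10 in Schwann cells and 0.821 in barcodes of 10 to 100 UMIs of the same library.

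Counted over cells, Schwann cells held 5.3, 60.5, 46.1, 66.2 and 73.8% of all UMIs of the 9 genes. In the sham library of batch 1, with its 7 Schwann cells, 85.7% lay in fibroblasts, mostly as Pmp22. Cells that no list named, 1409 in all, took a further 7.7, 25.1, 29.1, 22.9 and 3.7%. Their level of all 9 genes was 1143, 5388, 2281, 10416 and 630 CPM. To set shares of cells side by side, each cell was thinned to 1000 UMIs. Pmp22 was then seen in 22.1, 24.8, 18.9, 23.4 and 20.3% of fibroblasts, whose median depth was 2777 to 11318.5 UMIs, and no other member in over 2.44%. In Schwann cells at the same thinned depth, Pmp22 was seen in 14.3, 74.9, 53.8, 76.8 and 40.4%, Mbp in 28.6, 60.4, 39.5, 69.3 and 14.7%, Mal in 57.1, 57.2, 29.0, 60.6 and 20.6% and Ncmap in 0, 12.01, 3.81, 15.8 and 0.907%. The day 5 library had the lowest share for Mal, and the lowest for Mbp as well. Exact binomial intervals are drawn in the plot of shares and cover counting error only.

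**Figure D2:**
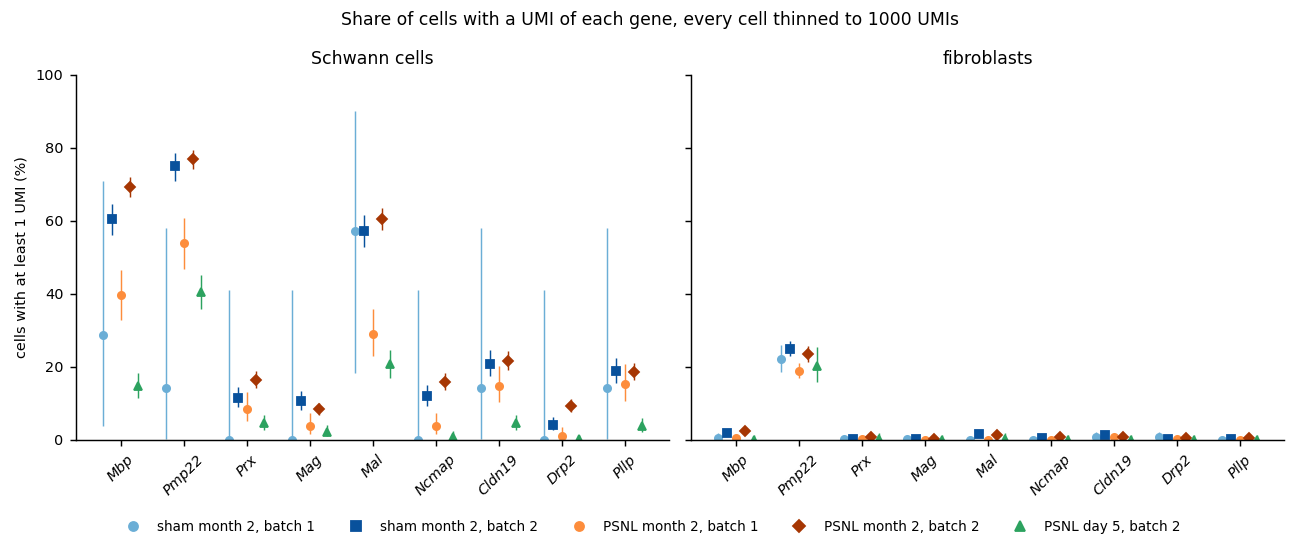
Percent of cells with at least 1 UMI of each gene after thinning every cell to 1000 UMIs, in Schwann cells and fibroblasts of each library, with 95% Clopper-Pearson intervals. Pmp22 was seen in 18.9 to 24.8% of fibroblasts, and the other 8 genes in at most 2.44%.

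Free RNA in the cell suspension puts UMIs of abundant genes into every droplet, so each level was set against barcodes of 10 to 100 UMIs, of which there were 4718 to 42365 per library with 80967 to 983619 UMIs. These are called ambient below. All 9 genes together made up 2210, 7971, 3863, 9137 and 1182 CPM in Schwann cells and 1019, 2088, 1235, 5701 and 829 in ambient barcodes. The Schwann sum was the higher in each library. The PSNL library of batch 2 had the highest ambient value by far, and there ambient Mbp, at 2502, stood above Mbp in Schwann cells, at 2296. Ambient barcodes were also rich in fibroblast check genes (5643 to 18417) and in the endothelial genes Pecam1, Cldn5 and Flt1 (2494 to 11920, against 1839 to 3201 in endothelial cells), so that they hold more than Schwann material.

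Set against ambient barcodes, 4 of the 9 genes were higher in Schwann cells (background 5.39% higher) and 1 was lower (background 16.9% lower). Mal, at 393, 1102, 405, 1263 and 254 in Schwann cells and 0, 156, 24.7, 478 and 111 in ambient barcodes, was higher by 1.97 ± 0.51 (SE, log2; edgeR adjusted p = 0.0063). Mag, at 0, 160, 65.5, 154 and 21.8 against 0, 37.6, 0, 68.2 and 4.0, was higher by 1.33 ± 0.39 (edgeR adjusted p = 0.0151). Pllp, at 246, 311, 210, 322 and 27.2 against 1.5, 60.0, 37.1, 123 and 22.2, was higher by 1.33 ± 0.42 (edgeR adjusted p = 0.0242), and Pmp22 by 1.09 ± 0.36 (edgeR adjusted p = 0.0311), from ambient levels of 75.8, 765, 296, 1455 and 347. For these 4 the Schwann value lay above the ambient value in every library in which both were found. Prx missed the threshold at 1.21 ± 0.44 (edgeR adjusted p = 0.0514), as did Ncmap at 0.98 ± 0.46 (edgeR adjusted p = 0.151). Mbp came to 0.80 ± 0.47 (edgeR adjusted p = 0.276), with Schwann levels 15.9, 5.16, 7.92, 0.92 and 0.90 times ambient, and Drp2 to -0.16 ± 0.46 (edgeR adjusted p = 0.877), a sign that other settings turned. Without the sham library of batch 2 the number of members called fell to 2, and without the PSNL library of batch 1 to 3. For a count of 0 the limit is the level that 3 UMIs would make: 147 CPM for Mag and Ncmap in the 7 Schwann cells of the batch 1 sham library, and 37.1 for Mag and Drp2 in the ambient barcodes of the batch 1 PSNL library.

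Cldn19 went the other way. It stood at 196, 473, 264, 448 and 40.0 in Schwann cells and at 901, 609, 716, 333 and 169 in ambient barcodes, higher in the ambient barcodes in 4 of 5 libraries, with a log2 difference of -1.86 ± 0.48 (edgeR adjusted p = 0.00669). In fibroblasts it was nearly absent, at 4.8 to 11.1. In the batch 1 sham library, barcodes of 101 to 999 UMIs held Cldn19 at 2369 CPM, 154 UMIs, of which 149 sat in 18 barcodes. In those 18 barcodes, 39.8% of all 4943 UMIs came from 5 unrelated genes, BC005537, Olfr1271, Olfr873, Fam217b and Col4a3, which made up 0.0587% of the UMIs in the 159 barcodes of that depth without Cldn19. The 5 genes were chosen after these values were seen. At the same depth the other libraries gave, with at least 2 Cldn19 UMIs against none, 0.263 against 0.0188% in sham of batch 2, 1.09 against 0.0232% in PSNL of batch 1, 0.0143 against 0.0156% in PSNL of batch 2 and 0 of 396 UMIs, from 1 barcode, against 0.0134% at day 5. In the last 2 of these libraries the 5 genes were thus not higher beside Cldn19 at this depth. In ambient barcodes with at least 2 Cldn19 UMIs they made up 2.80, 7.18, 29.7 and 10.7% of UMIs in the month 2 libraries and 84 of 420 UMIs at day 5, against 0.229, 0.126, 0.295, 0.0619 and 0.0595% in ambient barcodes without Cldn19, and in Schwann cells 0.00491 to 0.0155%. Leaving out each ambient barcode with a UMI of any of the 5 took ambient Cldn19 from 901 to 813, from 609 to 557, from 716 to 472, from 333 to 304 and from 169 to 106. What ambient Cldn19 counts stand for was not tested.

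**Figure D3:**
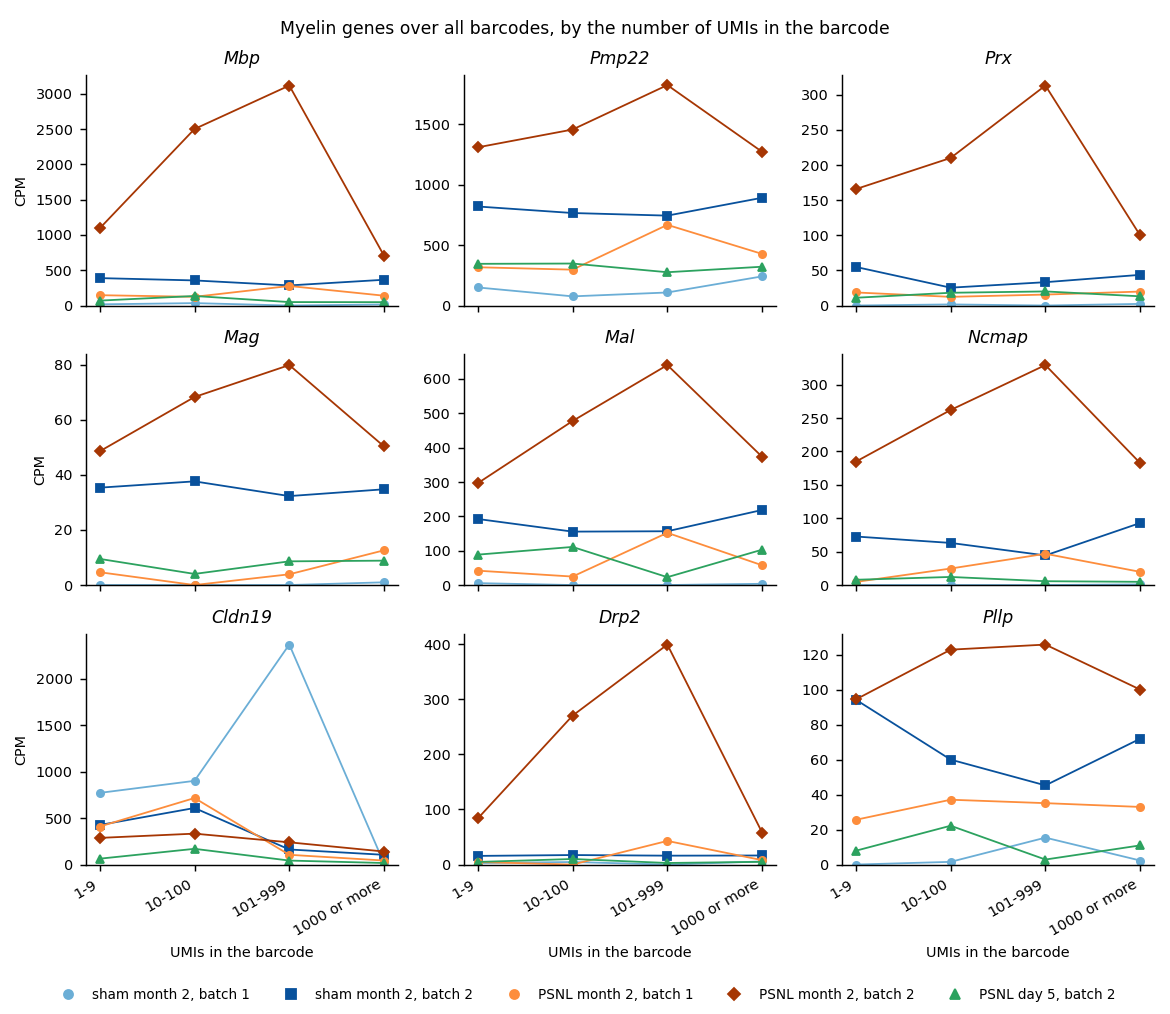
CPM (linear axes) of each of the 9 genes over all barcodes of a library, by the number of UMIs in the barcode, 1 line per library. In the sham library of batch 1, Cldn19 stood at 901 in barcodes of 10 to 100 UMIs, at 2369 in those of 101 to 999 and at 12.9 in those of at least 1000, while Mbp in the PSNL library of batch 2 stood at 2502, 3119 and 706.

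Fibroblasts, mural, endothelial and perineurial cells lay below ambient barcodes. In fibroblasts 8 of 9 genes were lower (background 9.80%), by 3.07 to 6.38 on the log2 scale, while Pmp22 was at 3.33, 0.41, 0.80, 0.21 and 0.50 times ambient (log2 -1.05 ± 0.38, edgeR adjusted p = 0.082). All 9 were lower in mural cells (background 16.3%) and in endothelial cells (background 15.4%), and 8 in perineurial cells (background 10.3%), Drp2 being the exception. Mbp per UMI of Pmp22 was 0.786, 0.541, 0.585, 0.630 and 0.182 in Schwann cells, 0.449, 0.465, 0.417, 1.72 and 0.390 in ambient barcodes and 0.0283, 0.0680, 0.0258, 0.146 and 0.00886 in fibroblasts. The fibroblast ratios, at most 0.146, lay below the lowest Schwann and ambient ratios.

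**Figure D4:**
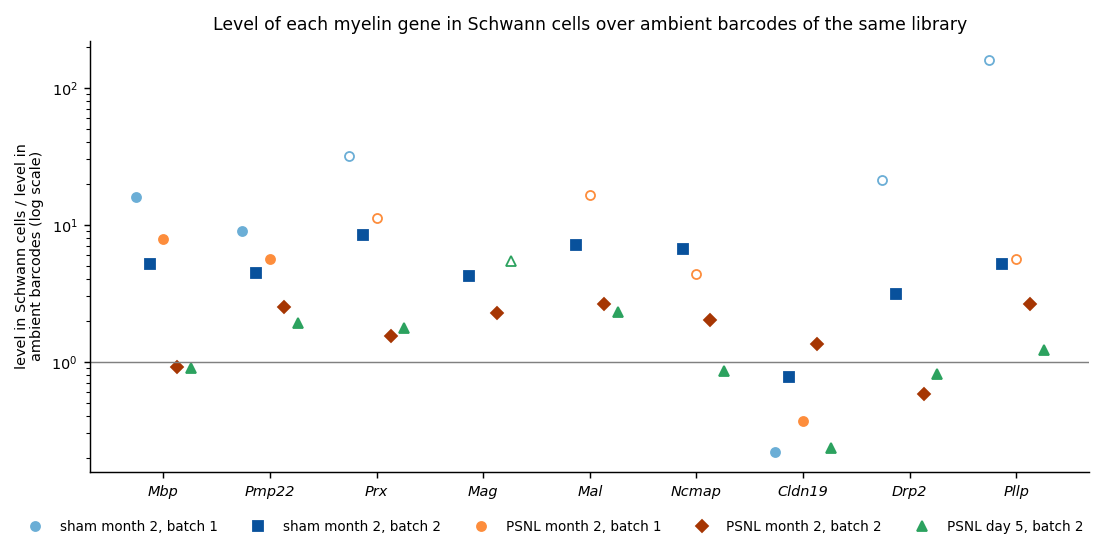
Ratio of the level in Schwann cells to that in barcodes of 10 to 100 UMIs (log axis) for each gene, 1 point per library. Open symbols rest on at most 3 ambient UMIs, and libraries with 0 UMIs in either set are left out. Mal lay above 1 in all 4 libraries with a value (2.29 to 16.4), and Cldn19 below 1 in 4 of 5.

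The comparison of month 2 PSNL with sham asks whether the myelin genes of the Schwann cells that passed the sort differ 2 months after injury. None of the 9 was called in Schwann cells by edgeR at an adjusted p under 0.05, nor at an unadjusted p under 0.05, and DESeq2 called none. Background calls were as rare, 1 gene of 9874 higher (0.0101%) and 1 lower. At an unadjusted edgeR p under 0.05 there were 71 genes (0.719%). The log2 differences ran from -0.18 to 0.76 with SEs of 0.55 to 0.63, and their median was 0.19 (all genes 0.10). With the batch as a block the median was 0.86 (all genes 0.17), again with no gene called. For each gene the levels of the 2 groups overlapped, as for Mbp (540 and 1837 in sham, 978 and 2296 in PSNL) and Ncmap (0 and 419 in sham, 108 and 530 in PSNL). Of the 9874 genes tested, 19.3% had PSNL above sham without overlap and 10.2% had PSNL below sham. Within batch 2, with 533 and 1042 Schwann cells, PSNL over sham was 1.25 for Mbp, 1.07 for Pmp22, 1.50 for Prx, 0.959 for Mag, 1.15 for Mal, 1.26 for Ncmap, 0.946 for Cldn19, 2.88 for Drp2 and 1.04 for Pllp. Within batch 1 the ratios of the 7 genes found in both libraries ran from 0.233 for Drp2 to 2.83 for Prx, on 45 UMIs of all 9 genes in the sham library.

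The share of Schwann cells with any of the 9 genes, at 1000 UMIs a cell, was 85.7% (6 of 7 cells), 92.9%, 76.2% and 93.7% in the 4 libraries of month 2. PSNL minus sham was -4.36 points (exact permutation p = 1.0, 2-sided), where 2 libraries a group cannot give a p below 0.333. Without the PSNL library of batch 1 the difference turned to 4.37. In fibroblasts and mural cells none of the 9 genes was called either, by edgeR, of 15033 and 8613 genes tested of which 0 were called (background 0.00%). At an unadjusted p under 0.05 there were 265 genes in fibroblasts (1.76%), none of them a member, and 136 in mural cells (1.58%), of which Mal and Ncmap were members. All 9 genes together stood in mural cells at 69.7 and 238 CPM in sham and at 135 and 514 in PSNL, 1.94 times sham within batch 1, where sham had 10 UMIs in 30 cells, and 2.16 times within batch 2. The median log2 difference of the 9 was 1.81 in mural cells (all genes 0.03), and 2.15 with the batch as a block, again with no gene called. The groups did not overlap for 4 of the 9 in mural cells, Prx, Mag, Mal and Drp2, with PSNL above sham, as for 15.6% of the genes tested there, and for Cldn19 in fibroblasts, with PSNL below sham (5.44 and 7.89 against 8.25 and 11.1 CPM), as for 10.3% of the genes tested there. In the mural cells of the batch 1 libraries Prx, Mag and Drp2 had 0 UMIs in sham and 2 each in PSNL. In mural cells Mal stood at 0 and 9.67 CPM in sham and at 13.1 and 40.4 in PSNL, and Ncmap at 0 and 1.76 in sham and at 0 and 35.0 in PSNL. In the PSNL library of batch 2 18 of 560 mural cells had a UMI of a Schwann marker, and these held 839 of the 1247 UMIs of the 9 genes (67.3%). In the PSNL library of batch 1 there was 1 such mural cell, with 9 of 103 UMIs (8.74%), and in the sham library of batch 2 there were 5, with 6 of 271 (2.21%).

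All 9 genes together stood in ambient barcodes of month 2 at 1019 and 2088 CPM in sham and at 1235 and 5701 in PSNL. PSNL over sham was 1.21 within batch 1 and 2.73 within batch 2, against 1.75 and 1.15 in Schwann cells. Cldn19 alone made up 901 and 609 CPM of the ambient sums in sham and 716 and 333 in PSNL. Most of both batch 1 sums was thus Cldn19, so their ratio rests mostly on a gene that was lower in PSNL. Ambient Mbp was 34.0 and 356 CPM in sham and 124 and 2502 in PSNL, a ratio of 3.63 within batch 1 and 7.03 within batch 2. Ambient Prx was 1.5 and 25.4 in sham and 12.4 and 210 in PSNL, and ambient Drp2 4.6 and 17.3 against 0 and 270. Ambient Cldn19 was the lower in PSNL in both batches, at 0.795 and 0.547 times sham. For all 9 genes the groups overlapped, while 16.3% of the genes tested had PSNL above sham without overlap and 7.29% had PSNL below sham. Without a batch term edgeR called none (0 of 6227 genes, background 0.00%). At an unadjusted p under 0.05 there were 224 genes (3.60%), of which 2 were members. With the batch as a block, 5 of 9 were higher in PSNL: Drp2 by 3.37 (edgeR adjusted p = 0.000263), Prx by 3.01 (0.00101), Ncmap by 2.35 (0.00663), Mal by 1.95 (0.031) and Mbp by 2.05 (0.0492), where 0.835% of the 6227 genes tested were higher and 320 were lower. Without the PSNL library of batch 2, a fit that can hold no batch term and sets PSNL of batch 1 against both sham libraries gave differences below 0 for Mbp, Prx, Ncmap, Mal and Drp2. Within batch 1 itself Mbp was 3.63 times as high in PSNL, while Prx, Mal, Ncmap and Drp2 had 0 to 3 UMIs in each library, too few to order.

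At day 5, with 1 library of batch 2 and a spread taken from the other groups, the myelin genes of Schwann cells were low. Against the PSNL libraries of month 2, 7 of 9 were lower (background 1.82% of 12989 genes), and the median log2 difference of the 9 was -3.02 (all genes -0.04). Ncmap was at 10.4 CPM at day 5 and at 108 and 530 at month 2, a difference of -4.77 ± 0.96 (SE, log2; edgeR adjusted p = 8.1e-05). Mbp was at 121 against 978 and 2296 (-3.60 ± 0.93, edgeR adjusted p = 0.0049). Drp2, at 8.2 against 22.9 and 156, differed by -3.34 ± 0.72 (edgeR adjusted p = 0.000308). These genes of the non-compact and compact sheath lay below every month 2 library with Schwann UMIs of the gene, sham included. Pllp, at 27.2 against 210 and 322, differed by -3.16 ± 0.85 (edgeR adjusted p = 0.00824), and Cldn19, at 40.0 against 264 and 448, by -3.02 ± 0.88 (edgeR adjusted p = 0.0188). Prx, at 31.9 against 139 and 323, differed by -2.72 ± 0.80 (edgeR adjusted p = 0.0200), and Mag, at 21.8 against 65.5 and 154, by -2.21 ± 0.71 (edgeR adjusted p = 0.0425).

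Pmp22 and Mal were not called at day 5. Pmp22 was at 667 against 1672 and 3646 (-1.84 ± 0.82, edgeR adjusted p = 0.259) and Mal at 254 against 405 and 1263 (-1.55 ± 0.83, edgeR adjusted p = 0.441). Mal per UMI of Mbp was accordingly 2.10 at day 5 and 0.414 to 0.727 in the other libraries, and Mbp per UMI of Pmp22 was 0.182 against 0.541 to 0.786. Day 5 is 1 library, whose spread is assumed to be like that of the other groups, and time, library and depth cannot be told apart. It came from batch 2, the PSNL libraries of month 2 came from both batches, and no day 5 fit had a batch term. The number called was 2 with DESeq2 (Mbp and Pllp), 2 without the PSNL library of batch 1 and 0 without that of batch 2, while the 7 called genes kept differences below 0 in every setting tried. In ambient barcodes the day 5 library was also low, at 829 CPM for all 9 genes against 1235 and 5701 in PSNL at month 2, but none of 8522 genes was called by edgeR (background 0.00%). At an unadjusted p under 0.05 there were 363 genes (4.26%), of which 1 was a member. The neuronal genes Snap25, Stmn2 and Tubb3 summed to 651 CPM in day 5 Schwann cells and to 0 to 160 at month 2, and immune genes to at most 16.4 in any library.

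Within Schwann cells, the 9 genes were compared between cells leaning to the myelinating side (more UMIs of Egr2, Fa2h, Gjb1, Gldn and Bcas1) and cells leaning to the non-myelinating side (more UMIs of Scn7a, Cadm2, Chl1, Kcna1 and L1cam). The myelinating side had 0, 63, 26, 104 and 101 cells (0, 11.8, 12.4, 9.98 and 22.9% of Schwann cells) and the other side 3, 411, 125, 893 and 311. Ncmap stood at 1510, 424, 1783 and 18.4 CPM on the myelinating side and at 168, 55.0, 303 and 3.8 on the other, in the 4 libraries with enough cells. The myelinating side was higher in each, by 2.90 ± 0.17 (SE, log2; edgeR adjusted p = 1.5e-09). Of the 9 genes 8 were higher (background 2.60%), with Drp2 at 2.20 ± 0.26, Mag at 2.10 ± 0.40, Prx at 2.08 ± 0.35, Pllp at 1.93 ± 0.25, Cldn19 at 1.87 ± 0.23, Pmp22 at 1.74 ± 0.27 and Mbp at 1.38 ± 0.29 (edgeR adjusted p from 2.16e-05 to 0.00698). Mal was not called, at 0.74 ± 0.26 (edgeR adjusted p = 0.124). Without the PSNL library of batch 1 the number called was 4, and without the day 5 library it was 9.

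The day 5 library differed from the other 3. At month 2 the level of Mbp on the myelinating side was 3.63, 4.17 and 3.18 times that on the other, and at day 5 it was 0.547 times, at 71.5 against 131 CPM. Pmp22, Prx, Mag and Mal gave ratios of 0.877, 0.666, 0.499 and 0.496 at day 5, where all their month 2 ratios were above 2. Only Ncmap, Drp2, Cldn19 and Pllp stayed above 1, at 4.78, 1.89, 1.29 and 1.14. This difference between times was not tested.

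**Figure D5:**
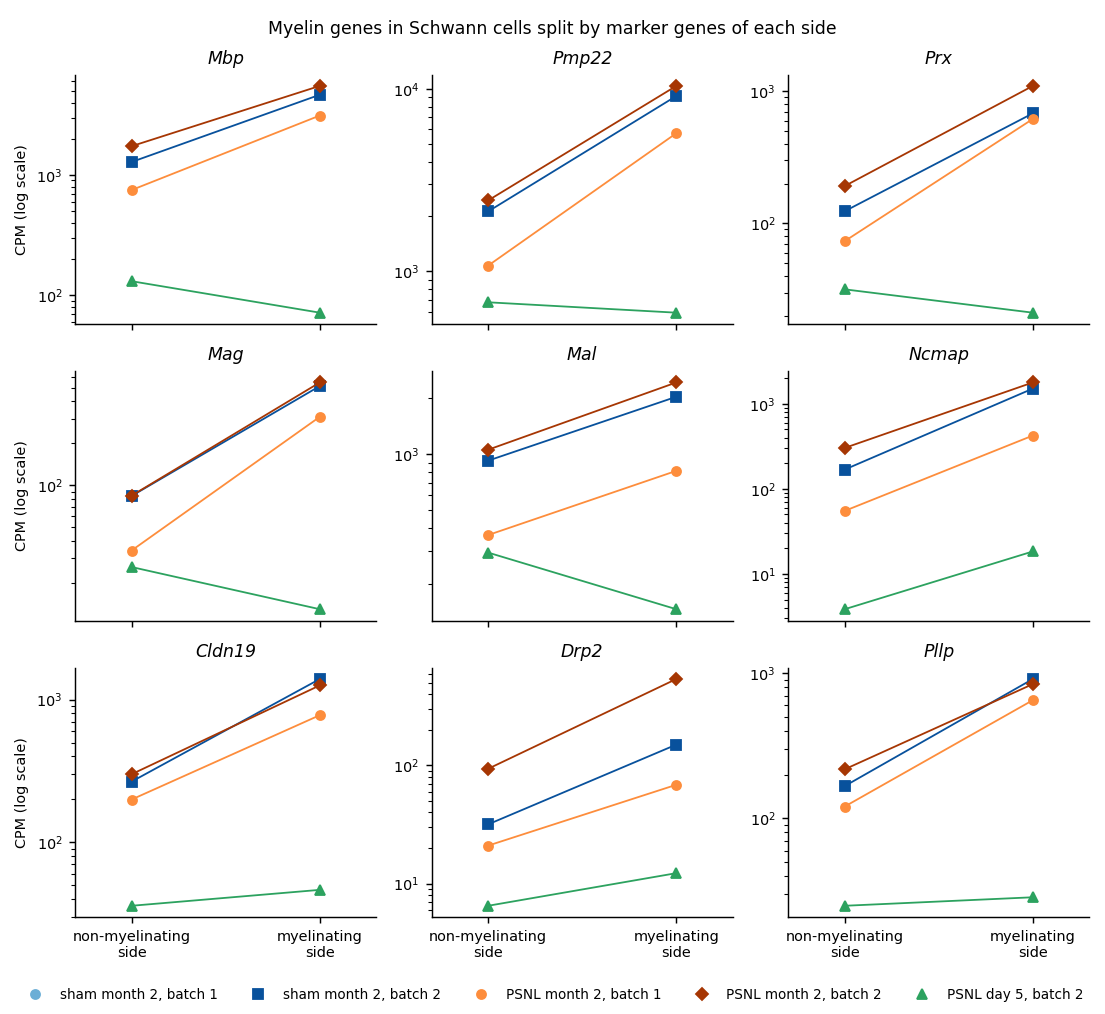
CPM (log axis) of each gene in Schwann cells leaning to the myelinating and to the non-myelinating side, joined by library. The sham library of batch 1 has too few cells. At month 2 all lines rise to the myelinating side, and at day 5 those of Mbp, Pmp22, Prx, Mag and Mal fall.

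The genes were also counted together within single Schwann cells. In the PSNL library of batch 2, at 1000 UMIs a cell, 165 Schwann cells had Ncmap. Of these 100% had Pmp22, 99.4% Mbp, 90.9% Mal, 73.3% Cldn19, 69.1% Pllp, 67.9% Prx, 46.7% Drp2 and 30.3% Mag. Among the 877 Schwann cells without Ncmap the shares were 72.4% for Pmp22, 63.6% for Mbp and 54.8% for Mal, but 11.9% for Cldn19, 9.12% for Pllp, 6.73% for Prx, 4.22% for Mag and 2.28% for Drp2. Each of the other 8 genes was thus seen in a larger share of the cells with Ncmap, and Mbp, Pmp22 and Mal also in most of those without it, which is a description of 1 library and of cells that share their free RNA. Cells with 5 or more of the 9 genes made up 0, 14.6, 6.67, 19.0 and 1.59% of Schwann cells, and cells with none 14.3, 7.13, 23.8, 6.33 and 45.4%. At day 5 the 65 cells with Mbp had Mal in 33 and Prx in 13, against 58 and 7 of the 376 without it. There 3 of the 20 cells with Cldn19 and 0 of the 17 with Pllp had Ncmap, and Mal was seen in 2 of the 17 cells with Pllp and in 89 of the 424 without it.

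Among 13296 genes compared over 24 sums of library and class, those whose log2(CPM + 1) ran most like the mean of the 9 included Ugt8a (r = 0.953), the enzyme that makes galactosylceramide of myelin, the potassium channel gene Kcna1 (0.950), Pou3f1 (0.949), a transcription factor of Schwann cells on the way to myelination, and the receptor gene Gpr37l1 (0.935). The points are sums of whole classes and share libraries, so r does not show which genes run with the 9 within Schwann cells. Kcna1 was one of the genes that marked the non-myelinating side above. Each of the 9 against the mean of the other 8 gave r = 0.949 for Mbp, 0.932 for Prx, 0.911 for Pllp, 0.893 for Mal, 0.879 for Cldn19, 0.864 for Drp2, 0.858 for Ncmap, 0.830 for Mag and 0.770 for Pmp22, the gene with a level in fibroblasts.

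Lists of related genes, chosen with earlier results known, were read beside the 9. Of 12 other myelin and node proteins all 12 were higher in Schwann cells than in fibroblasts, where 15.0% of all genes tested were higher and 23.0% lower. Of 14 genes of myelin lipid synthesis 8 were higher, with Gal3st1, for the sulfatide enzyme, at 7.02 ± 0.40 (SE, log2) and Ugt8a at 6.18 ± 0.33. Of 11 genes of non-myelinating and immature Schwann cells 9 were higher, with Kcna1 at 7.15 ± 0.47 and Sox2 at 6.74 ± 0.43, and Jun, a factor of the injury response in many cells, was lower (-1.18 ± 0.35, edgeR adjusted p = 0.0128). At month 2 none of the 11, 14 and 10 genes tested in these lists was called between PSNL and sham Schwann cells. At day 5, where 1.82% of all genes tested were lower, 3 of 12 myelin and node genes were lower, among them Bcas1 (-3.48 ± 0.83, edgeR adjusted p = 0.0015), and 2 of 14 lipid genes, among them Fa2h, which hydroxylates myelin lipids (-3.49 ± 0.74, edgeR adjusted p = 0.000205). None of the 11 non-myelinating and immature genes was called at day 5. On the myelinating side of Schwann cells, where 2.60% of all genes tested were higher and 2.24% lower, 9 of 13 lipid genes were higher, with the sterol pathway enzymes Idi1 at 2.09 ± 0.34 and Fdps at 1.90 ± 0.29, and 4 of 9 myelin and node genes, with Dusp15 at 2.09 ± 0.26. Lower there were 3 of 6 non-myelinating and immature genes, with the adhesion genes Ncam1 at -1.86 ± 0.21 and Cdh2 at -1.16 ± 0.33 (edgeR adjusted p = 0.046).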

How the data were processed

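The authors sequenced sorted nerve cells with 10X Chromium 3' chemistry (version 3) and deposited raw UMI counts for every barcode. The submitters' processing notes name GRCm38, kallisto 0.46.2, bustools 0.40.0 and Seurat 4.3, and the annotation release and counting strand are not given in the sources used here. Of 6 labelled libraries 5 were analysed. The members, marker lists, gene lists and tests were chosen with earlier results of these data known. Of 55421 identifiers 55154 had a symbol. Cells had at least 1000 UMIs and under 10% mitochondrial UMIs, and doublets were not removed. A class needed a marker sum of at least 2 without ties, and a sum needed at least 5 cells, so perineurial cells of the batch 1 sham library were left out. Sums per library and class were fitted with edgeR 4.0.16 in R 4.3.3 (quasi-likelihood, TMM, filterByExpr with the 9 genes kept in), with Benjamini-Hochberg adjustment over all genes and a threshold of 0.05. The library was a block wherever classes were compared. The month 2 and day 5 comparisons had no block, and day 5 was fitted with all 5 libraries. Some of the fits were also run on simulated counts with planted changes. These counts kept the library totals but held no other difference between libraries or batches. That run therefore cannot show how the fits behave where libraries or batches differ. The labels give 4 pooled nerves per library and 2 libraries per group at month 2, so p-values are set against a spread between pools. That spread is estimated in part from all genes together. In the Schwann cell fits of month 2 and day 5 the p-values rested on this shared estimate. A gene's own spread between pools carried almost no weight there.

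The labels give libraries of 1 batch the same number, and deviations from the group mean correlated within batches at 0.137 in Schwann cells, 0.463 in fibroblasts, 0.185 in mural cells and 0.421 in ambient barcodes, so the batch pairs the libraries. Intervals are 95% Clopper-Pearson for shares, and the limit for a count of 0 is 3 counts. Both cover counting error only. Thinning drew 1000 UMIs per cell with seed 1. Named genes were all 9 members, up to 2 genes in each direction with the largest change among those called in each list, and the 5 genes of at least 200 UMIs most like the mean of the 9, on a scale with a pseudocount of 1. Genes named by the rule whose single values are not reported here are included in counts over their lists. Alternatives were other cell and class filters, ambient barcodes of 10 to 50 UMIs, other scaling, DESeq2 1.42.0, no filter on low counts, subtraction of 10% ambient profile, the batch block and leaving out each library. Other tools were matplotlib 3.10.9, pandas 2.3.3, numpy 2.4.6 and scipy 1.17.1 in Python 3.11.15.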

Additional observations from a re-analysis of the deposited data

Results flagged for a closer look

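The ratio of the level on the myelinating side of Schwann cells to that on the non-myelinating side went one way in every PSNL library of month 2 and the opposite way in the PSNL library of day 5 for 5 of the 9 genes. At day 5 it was 0.547 for Mbp, 0.877 for Pmp22, 0.666 for Prx, 0.499 for Mag and 0.496 for Mal, where the PSNL libraries of month 2 gave 4.17 and 3.18 for Mbp, 5.33 and 4.25 for Pmp22, 8.43 and 5.73 for Prx, 9.07 and 6.47 for Mag and 2.22 and 2.30 for Mal. The difference between the times was not tested, and day 5 is 1 library. Its myelinating side held 101 cells, 22.9% of its Schwann cells, against 12.4 and 9.98% in PSNL at month 2.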

How the results depend on the processing

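Over all alternatives, 224 of 233 values of comparisons stayed close to the main value. For numbers of members called this means within 1.5 times the main number, or 0 where that was 0. For the share of Schwann cells it means the same sign. Single calls could still change within these limits. Of 1318 values of members called in the main comparisons, 52 lost the call and 0 changed direction. The number of the 9 genes called between Schwann cells and ambient barcodes was 5; it was 2 without the sham library of batch 2, 3 without the PSNL library of batch 1, and 2 to 7 over all libraries left out. For day 5 against PSNL at month 2 in Schwann cells it was 7; it was 2 with DESeq2, 2 without the PSNL library of batch 1, 0 without that of batch 2, and 0 to 7 over the libraries left out. In ambient barcodes it rose from 0 to 2 without the sham library of batch 2 (range 0 to 2). Between the sides of Schwann cells it was 8, and 4 without the PSNL library of batch 1 (range 4 to 9). With the replicate block at month 2 it was 0 in Schwann cells, fibroblasts and mural cells and 5 in ambient barcodes, the only comparisons it was run in. The difference in the share of Schwann cells with any of the 9 genes was -13.1 to 4.37 points over libraries left out, and 4.37 without the PSNL library of batch 1. Drp2 between Schwann cells and ambient barcodes turned to 0.050 with ambient barcodes of 10 to 50 UMIs, 0.47 without scaling beyond the library total, 0.24 with DESeq2, 0.083 without a filter on low counts and 0.78 without the PSNL library of batch 2 (-0.53 to 0.78 over libraries left out). Without the PSNL library of batch 2, and then with no batch term, month 2 differences in ambient barcodes turned to -0.66 for Mbp, -0.51 for Pmp22, -0.26 for Prx, -6.30 for Mag, -1.54 for Mal, -0.34 for Ncmap and -5.74 for Drp2, where the highest values with another library left out were 3.90, 2.18, 4.86, 6.43, 8.95, 8.24 and 4.15 in the same order. The values of Mag and Drp2 rest on 0 UMIs in PSNL of batch 1, a count that allows up to 37.1 CPM, so no direction can be read from them. Within batch 1 alone Mbp and Pmp22 were 3.63 and 3.91 times as high in PSNL. The cause was not tested in any of these.

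Counts over all genes moved by over 1.5 times in several settings. Leaving out libraries took Schwann against perineurial cells from 2460 to between 1324 and 4024, perineurial cells against ambient from 1088 to between 517 and 1709 (1711 without a filter), Schwann cells against ambient from 2159 to 1393 (3657 without scaling), fibroblasts against ambient from 1864 to 1177, mural cells against ambient from 2632 to 1660, and the sides of Schwann cells from 486 to between 135 and 1066 (266 with DESeq2). Day 5 against month 2 in Schwann cells went from 590 to between 36 (DESeq2) and 1155 (at least 20 cells per sum), with 48 without the PSNL library of batch 2, and in ambient barcodes from 0 to at most 70. At month 2 the counts were 0 to 14 in Schwann cells (2 in the main comparison), 0 to 59 in fibroblasts and 0 to 11 in mural cells (0 in both), and in ambient barcodes 372 with the batch block and 16 without a filter (0 otherwise). Leaving out the day 5 library leaves no day 5 comparison. The number of cells limits the sham library of batch 1, with 7 Schwann cells.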

Other observations

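Cells that the marker lists left unnamed also held UMIs of the myelin genes. Mbp stood in them at 260, 1082, 475, 2470 and 138 CPM (UMIs per 1000000) and Pmp22 at 502, 2391, 1081, 4178 and 321, in the order sham batch 1, sham batch 2, PSNL batch 1, PSNL batch 2 and PSNL day 5. At 1000 UMIs a cell, 5 or more of the 9 genes were found in 1 of 19, 63 of 476, 15 of 316, 131 of 444 and 0 of 154 of these cells. In fibroblasts the numbers were 0, 5, 0, 10 and 0 cells. These cells had no marker sum of at least 2 or were tied, and were part of no comparison above.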
